A study of Mus musculus with 2 samples.

Results

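This account covers 10 mouse genes: the ID inhibitors Id1, Id2, Id3 and Id4, the E-protein genes Tcf3, Tcf4 and Tcf12, and Tal1, Lyl1 and Lmo2 of the SCL complex. They were chosen by family, as a list of names with no peak threshold, from 21523 protein-coding genes. The choice was made with earlier results of these data known. All 10 were found in the gene annotation. The peaks are regions recovered by anti-FLAG chromatin immunoprecipitation and sequencing (ChIP-seq) from C57BL/6 mouse cells with the markers Lin-Sca-1+c-Kit+, a surface phenotype under which stem cells and early progenitors are enriched. The animals were 8 to 10 weeks old, and the labels give the tissue as blood. The cells carried a MigR1 retrovirus encoding HLF (hepatic leukemia factor) with a 3xFLAG tag. The transgene label reads MigR1 3xFLAG-HLF/HLF, and what its second HLF stands for was not resolved here. The cells were cultured for 5 days with 4 cytokines, IL-3 at 5 ng/ml, Flt3L and IL-7 each at 10 ng/ml, and SCF at 50 ng/ml. The series also holds an empty-vector MigR1 library, cultured in the same way, which was not analysed here. The tagged HLF came from a virus, so the anti-FLAG peaks were taken to describe the introduced protein. Whether any of them would arise without it was not tested. A peak list gives no expression, so the labelled cell type could not be checked against its markers.

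E proteins are basic helix-loop-helix (bHLH) transcription factors that bind E-box DNA as dimers and drive lymphoid development. ID proteins have the helix-loop-helix but no basic region, so they pair with E proteins and keep them off DNA. TAL1 (also called SCL) and LYL1 are bHLH factors that bind DNA with an E protein. LMO2 carries no DNA-binding domain of its own and bridges that dimer to LDB1 and a GATA factor. HLF belongs to the PAR bZIP family, whose members bind as dimers to palindromic sites related to TTACGTAA.

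The library (n = 1) gave 3153 peaks, each 400 bp wide, on the mm10 build. The list holds positions alone, with no height, score or read count, so the depth and the strength of any peak are unknown. With 1 library there is no replicate error, and no comparison below carries a test. A peak was placed at its centre, and distances run from that centre to the nearer end of a gene, or are 0 where the centre lies in the body.

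Reference promoter sequence of these genes was searched for words that PAR bZIP proteins bind. RefSeq windows (GRCm38.p6) running from 250 bases before to 50 after an annotated start were matched by symbol for 7 of the 10 genes, which have 10 such windows; Id1, Lmo2 and Tcf4 have no entry. None of the 10 windows contained TTACGTAA, TTATGTAA, TTGCGTAA or TTGTGTAA on either strand. A window may hold more than 1 of these words. Over all 32851 windows, 1.93% held at least 1 of the 4 words. Among the 142 windows, of any gene, in which a peak centre fell, 44 (31%) held one, and no centre fell in any of the 10 member windows. Id1, the member with a peak centred at a gene end, is not among these windows, so this absence does not cover it. No match says only that these letters are not in this window.

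The 250 bases before the start are shown for 3 genes with no peak within 100 kb, Id2, Id3 and Tal1, and for the annotated start that lay nearest to a peak among those 10, the innermost start of Tcf12. Capitals mark the E-box word CAGCTG (either strand, present in 16.3% of all windows) and the GATA word AGATAA (either strand, written TTATCT on the other strand, in 11.2%). The Id2 stretch is chr12:25096093-25096342 on the minus strand and its E-box word starts 196 bases before the start. The Id3 stretch is chr4:136143572-136143821 and the Tal1 stretch chr4:115056176-115056425, both on the plus strand. In Tal1 the GATA word starts 205 bases before the outermost of its 2 annotated starts, and the window at the other start held no GATA word. The Tcf12 stretch is chr9:71896097-71896346 on the minus strand.
Id2: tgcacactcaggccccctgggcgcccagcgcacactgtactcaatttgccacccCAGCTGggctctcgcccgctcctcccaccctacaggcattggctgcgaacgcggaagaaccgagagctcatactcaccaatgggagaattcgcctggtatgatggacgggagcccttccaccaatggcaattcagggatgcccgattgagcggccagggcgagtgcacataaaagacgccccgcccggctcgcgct
Id3: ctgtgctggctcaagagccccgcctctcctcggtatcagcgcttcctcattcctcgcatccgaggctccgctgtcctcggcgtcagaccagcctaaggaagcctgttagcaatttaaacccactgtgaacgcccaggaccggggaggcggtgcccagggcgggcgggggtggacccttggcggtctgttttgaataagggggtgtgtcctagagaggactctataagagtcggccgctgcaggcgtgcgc
Tal1: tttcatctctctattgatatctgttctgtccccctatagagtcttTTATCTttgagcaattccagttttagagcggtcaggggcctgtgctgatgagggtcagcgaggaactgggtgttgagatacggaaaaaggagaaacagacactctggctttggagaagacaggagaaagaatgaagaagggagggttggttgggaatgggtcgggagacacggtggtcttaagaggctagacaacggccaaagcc
Tcf12, innermost start: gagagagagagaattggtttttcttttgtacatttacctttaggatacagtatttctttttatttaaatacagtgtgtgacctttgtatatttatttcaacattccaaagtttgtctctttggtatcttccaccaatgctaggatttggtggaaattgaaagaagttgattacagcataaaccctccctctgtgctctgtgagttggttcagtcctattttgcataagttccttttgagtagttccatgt
The Id2 and Id3 windows were GC-rich, at 63.3% and 60% G or C over the 300 bases, against a median of 52.7% for all windows. The Tcf12 innermost window was AT-rich, with 36.3% G or C, while the windows at the other two Tcf12 starts had 71.7% and 75.7%. The E-box word also occurred in the outermost Tcf12 window, 240 bases before the start. An E-box or GATA word in a window is a description of the letters, not a bound site.

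Of the 10 genes, 2 had a peak centre in the body (Id1 and Tcf12), against 6.94% of all protein-coding genes. With 20 kb added on each side the count was 3 (Id1, Tcf12 and Lmo2), against 15.3%. Windows of 1, 5 and 10 kb each gave 2, against 7.8%, 9.58% and 11.6%, and one of 50 kb gave 4, against 24.6%. Within 100 kb it was 5, with Lyl1 and Tcf3 added, against 36.9%. Id2, Id3, Id4, Tcf4 and Tal1 had no peak within 200 kb, a distance within which 52.6% of all protein-coding genes had one. At 200 kb the 10 genes still counted 5, so the share of the genes with a peak was above the background at the short windows and slightly below it at the longest. With 10 genes, 1 gene more or less moves each of these shares by 10 percentage points. The genes were also chosen with earlier results of these data known.

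**Figure D1:**
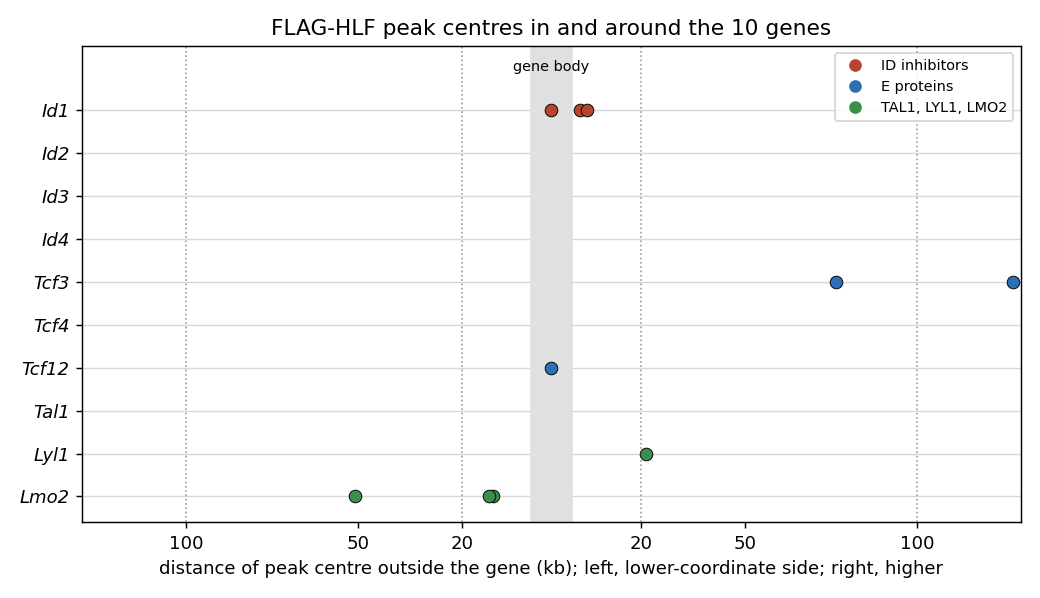
Peak centres in and around the 10 genes, drawn to scale by distance outside the gene in kb; the grey band stands for the gene body whatever its length, and dotted lines mark 20 and 100 kb. Id1 has 3 peaks at or close to the gene, Lmo2 has 3 on its lower-coordinate side, and Id2, Id3, Id4, Tcf4 and Tal1 have none in the range drawn.

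**Figure D2:**
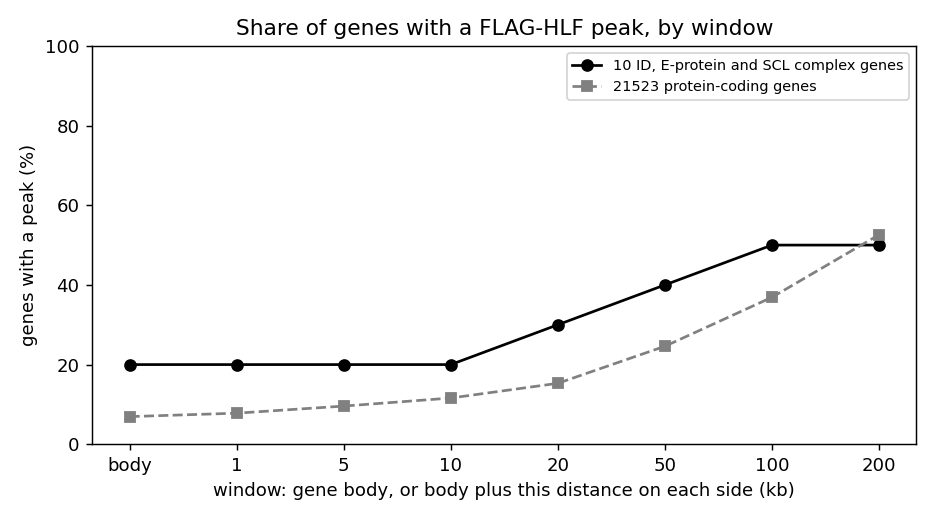
Percentage of genes with at least 1 peak centre (vertical axis) by window (horizontal axis, in kb, not to scale), for the 10 genes (circles) and all protein-coding genes (squares). The 10 genes run from 20% in the body to 50% at 100 kb and stay at 50% at 200 kb, while all protein-coding genes run from 6.94% to 52.6%.

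Gene length differs widely among the 10 genes and sets how much room a body offers. Id1, Id2, Id3, Id4 and Lyl1 are under 10 kb, a class in which 1.26% of 7676 protein-coding genes had a peak in the body. Id1, at 1.16 kb, was the 1 of these 5 that did. Tcf3, Tal1 and Lmo2 lie between 10 and 100 kb, where 7.45% of genes had a body peak and none of these 3 did. Tcf4 and Tcf12 exceed 100 kb, where 22.5% of genes had one; Tcf12 (268 kb) did and the longer Tcf4 (345 kb) did not. Within 20 kb the background was 9.21%, 16.9% and 26.9% in the 3 classes, and each class held 1 of the 3 genes with a peak. Within 100 kb it was 30.3%, 40.5% and 41.1%, and the classes held 2 (Id1 and Lyl1), 2 (Tcf3 and Lmo2) and 1 (Tcf12).

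Among the ID inhibitors, peaks were found at Id1 and not at the others. Id1 (gene ID 15901; chr2:152736251-152737410) had 3 peaks, at chr2:152736061-152736460, chr2:152739398-152739797 and chr2:152741605-152742004. The first is centred 9 bp inside the lower-coordinate end of the gene, so that its 400 bp span that end. The other two are centred 2.19 and 4.39 kb beyond the opposite end. Successive centres were 3.34 and 2.21 kb apart. At least 3 peaks in or within 20 kb were counted for 105 protein-coding genes, or 0.488%, with close intervals counted separately. Merging peaks within 5 kb would count the Id1 peaks as 1. Id1 was the nearest protein-coding gene to all 3 peaks.

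Other genes lay close enough to share the Id1 peaks under the 20 kb rule. Cox4i2, which encodes a subunit isoform of cytochrome c oxidase, lay 12.1 to 17.7 kb from the 3 centres, and each of its 3 peaks was an Id1 peak. Bcl2l1, encoding the anti-apoptotic protein BCL-XL, shared the outer pair, at 16.9 and 19.1 kb. The long noncoding RNA (lncRNA) gene Gm32057 and the pseudogene Gm14162 shared all 3, and no peak centre was inside either. Within 500 kb, Id1 had 6 peaks in all, against a median of 2 for protein-coding genes (quartiles 0 and 3), and 7.45% of genes had at least 6.

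The other ID genes lay far from any peak. Id2 (chr12:25093799-25096092), which is required for innate lymphoid and NK cell development, had its nearest peak 1364 kb away on its 5′ side, and 89.7% of protein-coding genes had one at least as near. Id3 (chr4:136143822-136145392), which restrains E proteins in developing lymphocytes, had its nearest at 245 kb on the 5′ side, a distance at which 57.6% of genes had one. For Id4 (chr13:48261116-48266028), known chiefly from the nervous system, it lay 986 kb away on the 3′ side, against 84.7% of genes. Id2 and Id4 had no peak within 500 kb, as did 26.9% of all protein-coding genes, and Id2 had none within 1000 kb, as did 15.1%. Id3 had 1 within 500 kb.

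**Figure D3:**
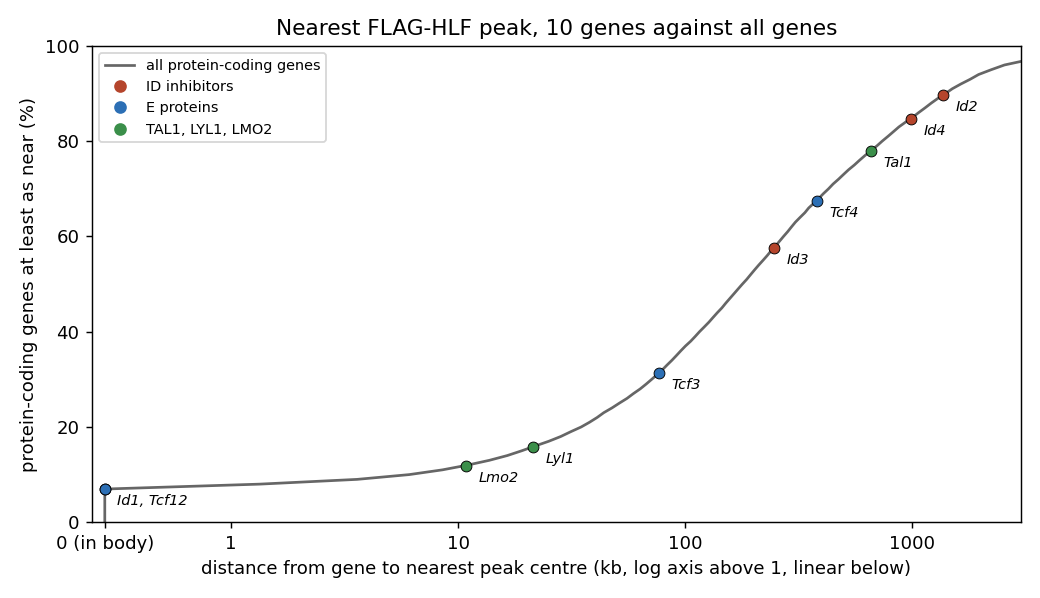
Distance from each gene to its nearest peak centre in kb (horizontal, log axis above 1 kb and linear below) against the percentage of protein-coding genes at least as near (vertical); the line is all 21523 protein-coding genes. Id1 and Tcf12 share the point at 0, followed by Lmo2, Lyl1, Tcf3, Id3, Tcf4, Tal1, Id4 and Id2.

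Of the E-protein genes, Tcf12 alone had a peak within 20 kb. Tcf12 (gene ID 21406; chr9:71844252-72111893, minus strand) encodes HEB, an E protein with a large part in T cell development. Its single peak, at chr9:71874660-71875059, lay 30.6 kb inside the lower-coordinate, 3′ end of the gene. That is 237 kb from the outermost annotated start and 21.2 kb downstream of the innermost start, whose upstream sequence is given above. No other annotated gene lay within 20 kb of this peak. The nearest other protein-coding gene, Cgnl1, was 65.6 kb away. Exons are not in the annotation table used, so exon or intron could not be assigned.

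Tcf3 (gene ID 21423; chr10:80409541-80433976, minus strand) encodes E2A, an E protein required for B cell commitment. It had 1 peak within 100 kb, at chr10:80510334-80510733, which was 76.6 kb beyond its 5′ end; 31.3% of protein-coding genes had a peak at least as near. This peak lay inside Onecut3, a homeobox transcription factor gene, and 5 protein-coding genes were nearer to it than Tcf3. The next peak on that side was 128 kb away, inside Rexo1, with 11 protein-coding genes nearer. Tcf3 stands in a gene-dense region, with 11 protein-coding neighbours within 100 kb against a median of 4 (quartiles 2 and 7). It had 6 peaks within 500 kb, the same number as Id1, but the nearest was far outside the gene.

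Tcf4 (chr18:69343429-69687967), whose product is the E protein of plasmacytoid dendritic cells, had its nearest peak 379 kb from its higher-coordinate end, against 67.5% of genes at least as near. That was the single peak within 1000 kb of Tcf4, where the median gene had 4. Tcf4 had no protein-coding neighbour within 100 kb. Tcf12 and Tcf4 are thus both long genes with few neighbours, and 1 had a peak in its body while the other had none within 200 kb.

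In the SCL complex group, the genes were ordered Lmo2, Lyl1 and Tal1 by distance to a peak. Lmo2 (gene ID 16909; chr2:103957903-103981878) had 3 peaks within 100 kb, all on its lower-coordinate side. A pair at chr2:103945737-103946136 and chr2:103946872-103947271, with centres 1.14 kb apart, lay 12 and 10.8 kb from the gene, inside the lncRNA gene Gm39896. The outermost, at chr2:103906732-103907131, was 51 kb from Lmo2 and inside another lncRNA gene, Lincred1. Lmo2 was the nearest protein-coding gene to all 3, and no other protein-coding gene shared the pair under the 20 kb rule. At least 2 peaks in or within 20 kb were counted for 2.72% of protein-coding genes, again with close intervals counted separately. The annotation used does not pair Lmo2 with a strand.

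Lyl1 (gene ID 17095; chr8:84701423-84704716, plus strand) just missed the 20 kb window, with 1 peak at chr8:84725844-84726243, 21.3 kb beyond its 3′ end. Of all protein-coding genes, 15.8% had a peak at least as near. The peak was inside the neighbouring Nfix, the gene of a nuclear factor I transcription factor, 21.3 kb from the end of Nfix that faces Lyl1. It was also inside the lncRNA gene G430095P16Rik, 803 bp from one end. Nfix is therefore nearer to this peak than Lyl1 is, and position alone does not give it to either gene.

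Tal1 (chr4:115056426-115071755, plus strand), the gene of SCL itself, had its nearest peak 657 kb beyond its 3′ end, and 78% of protein-coding genes had one at least as near. It had no peak within 500 kb although it had 4 protein-coding neighbours within 100 kb, the median number. Within 1000 kb it had 4 peaks, the median number for protein-coding genes. The 2 bHLH genes of the complex, Tal1 and Lyl1, thus had no peak within 20 kb, which is the usual state, since 15.3% of protein-coding genes had one. Lyl1 missed that window narrowly, at 21.3 kb. Their partner Lmo2 had 2 peaks within 20 kb, where 2.72% of protein-coding genes had at least 2.

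**Figure D4:**
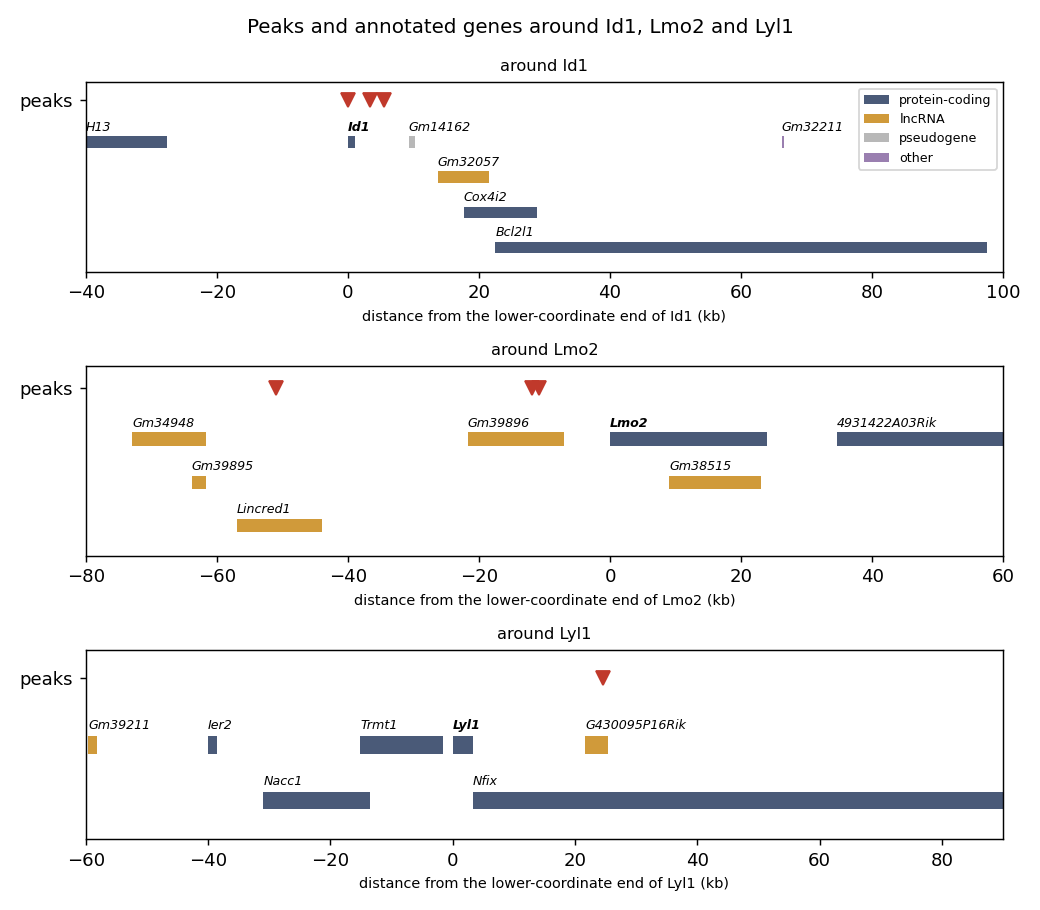
Peaks (red triangles) and annotated genes (bars, coloured by type, cut at the panel edges) around Id1, Lmo2 and Lyl1, in kb from the lower-coordinate end of each. The 3 Id1 peaks lie at 9 bp, 3346 bp and 5553 bp from that end, the Lmo2 pair lies in Gm39896, and the Lyl1 peak lies in Nfix.

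Counted together, the 10 genes had 9 distinct peaks within 100 kb and 6 within 20 kb, and no peak was counted for 2 of them. Id1 and Lmo2 accounted for 6 of the 9. A member was the nearest protein-coding gene for 7 peaks, those of Id1, Lmo2 and Tcf12. By position, 4 of the 9 centres lay inside a protein-coding gene (Id1, Tcf12, Onecut3 and Nfix) and 4 inside a lncRNA gene, with the Lyl1 peak in both classes. The centres in lncRNA genes were those of Lmo2 and Lyl1. The same shares over all 3153 peaks were not computed, so whether these counts are usual is not known. The median distance to the nearest peak was 161 kb over the 10 genes and 179 kb over all protein-coding genes. Single genes ranged from a peak in the body (Id1 and Tcf12) to none within 1000 kb (Id2).

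Genes that work with the 10 were counted by 3 lists, whose 50 symbols all matched. These lists, too, were chosen with earlier results of these data known. Of 17 SCL complex partners and co-bound factors, 2 had a peak within 20 kb (11.8%, against 15.3% of all protein-coding genes). They were Runx1, a transcription factor required for the emergence of blood stem cells, with 2 peaks in the body, at 6.46 and 110 kb from the nearer end, and Erg, an ETS factor of stem cells, with 1 at 56.9 kb inside.

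Of 18 bHLH partners and relatives of E proteins, 2 had a peak within 20 kb (11.1%). Neurod1, a neuronal and endocrine bHLH gene, had 1 in the body, 1.71 kb from the nearer end, and Bhlhe40, a bHLH repressor tied to the circadian clock, had 1 at 1.15 kb outside. Of 15 genes known to depend on E proteins in lymphoid precursors, 3 had one (20%). These were Pax5, the B lineage commitment factor, with a peak 6.21 kb inside, Notch1, the receptor that starts T cell development, with 1 at 20 kb inside, and Foxo1, a forkhead factor of lymphoid precursors, with 2 at 18.1 and 37.5 kb inside. Within 100 kb the 3 lists had 6, 7 and 7 genes with a peak (35.3%, 38.9% and 46.7%, against 36.9%). Each list thus lay within 2 genes of the background share at both windows. In the body the 3 lists had 2, 1 and 3 genes with a peak (11.8%, 5.56% and 20%, against 6.94%). Of these, Runx1, Erg and Pax5 exceed 100 kb, the class in which 22.5% of genes had a body peak. Foxo1 and Notch1 lie between 10 and 100 kb, where 7.45% had one, and Neurod1 is under 10 kb, where 1.26% did.

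**Figure D5:**
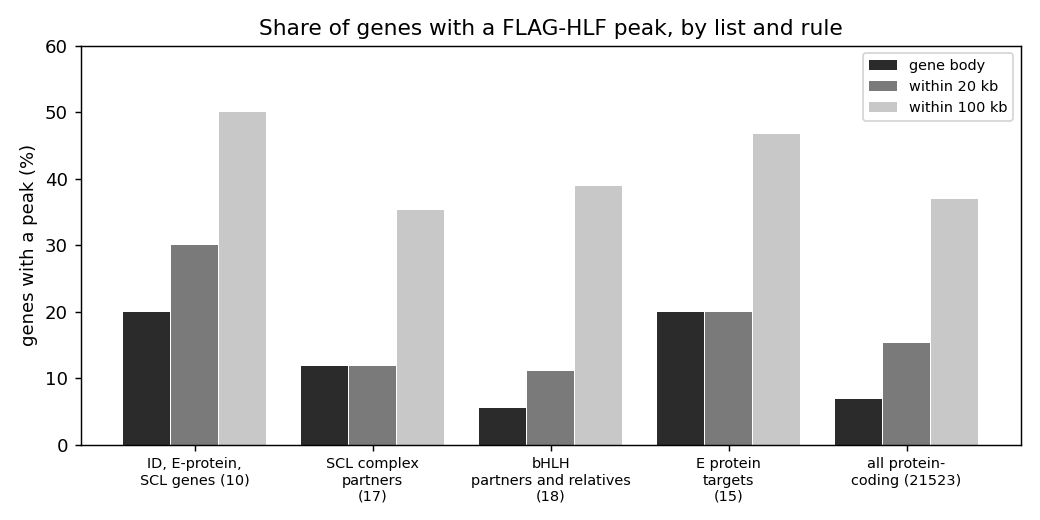
Percentage of genes with a peak in the body, within 20 kb and within 100 kb (bars from dark to light), for the 10 genes, the 3 lists of related genes and all protein-coding genes, with the number of genes in brackets. The 10 genes stand at 20, 30 and 50%, and all protein-coding genes at 6.94, 15.3 and 36.9%.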

How the data were processed

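The study sequenced 2 anti-FLAG ChIP-seq libraries, and the peak list of 1 of them, FLAG-HLF, was used. The deposited list gives chromosome, start and end of 3153 intervals of 400 bp, with no header. Per the submitters' processing notes, Bowtie2 2.0.6, MACS2 2.0.10 and mm10 were used, without their roles. How peaks were thresholded, whether the control entered, and how every interval came to one width: not given in the sources used here. Setting one width hides how far each enriched region reached, so the centre (start + 200) was used.

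Gene ends came from a RefSeq table of GRCm38.p6, which has the chromosome coordinates of mm10. Of 49997 rows, 783 were left out (not on chromosomes 1 to 19 or X, or starting below 3 Mb, where scaffold coordinates lie), leaving 49214, of which 21523 are protein-coding. Strand was taken from the RefSeq promoter table, which also gave the sequences. Distances and word matches were computed in Python 3.11.15 with numpy 2.4.6 and tested on simulated data. No test was run, because 1 library has no replicate. Percentages over all protein-coding genes are the background.

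The members and lists were chosen with earlier results of these data known, as was the count of promoter windows that hold a peak centre. Named genes are the 10 members, genes that hold, neighbour or share their peaks, and list genes with a peak within 20 kb. Alternatives covered windows, interval overlap, merged peaks, nearest-gene assignment, the background and word mismatches.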

Additional observations from a re-analysis of the deposited data

How the results depend on the processing

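Of 21 alternatives to a count, 16 left it within 1.5 times its value, a limit that takes in 3 to 2 and 9 to 6. Merging peaks within 1 kb is among the 16 but joined none near the 10 genes, where the closest centres were 1.14 kb apart. The promoter word count, also among them, was 0 under both settings. The tally is therefore no measure of stability. Measuring from the interval's edge cannot move a distance by more than 200 bp, and another background cannot change the genes' count. The count of genes with a peak within 20 kb, 3, was 2 at windows of 1, 5 and 10 kb (backgrounds 7.8%, 9.58% and 11.6%) and 4 at 50 kb (24.6%). It was 3 when each peak went to its nearest protein-coding gene within 100 kb (11.3%), a wider window than 20 kb. Against all 49214 annotated genes the 20 kb background was 10.8%. The count within 100 kb fell from 5 to 3 when a peak was not counted for a gene with another protein-coding gene nearer to it, because Lyl1 and Tcf3 drop out by construction. The background fell too, from 36.9% to 11.3%. Count and background were the same as under the nearest-gene rule above, so the 2 alternatives are not separate evidence. With peaks within 5 kb merged, the 9 distinct peaks became 6, because the Id1 peaks joined and the Lmo2 pair joined. In the gene body, 1 bHLH relative had a peak where 2 had one within 20 kb. At 100 kb the SCL complex partners, bHLH relatives and E-protein targets had 6, 7 and 7, since the window is wider. With 1 mismatch to TTACGTAA allowed, still 0 of 7 genes had a match (3.9% of all windows did). Mismatches to the other words were not searched, so near matches to them are not excluded. The Tcf12 innermost sequence shown above holds TTGCATAA, 1 base from TTGCGTAA. The list has no score, so the stricter peak threshold could not be tried. Because a single library was used, leaving out replicates does not apply. No paired analysis was possible because each group has a single library and a peak file was used for 1 of the 2. The unknown depth limits every absence: a gene without a peak is one where none was called.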
